A study of Mus musculus with 42 samples.

Results

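The interleukin-1 family was followed in mouse carotid intima and cultured aortic endothelial cells through 10 genes of the 21674 in the count table. The members were chosen by family name, with earlier values of these data known. They are the agonists Il1a and Il1b, the antagonist Il1rn, the receptors Il1r1, Il1r2, Il1rap and Il1rl1, the ligands Il33 and Il18, and the processing enzyme Casp1. Because the rise of Il1r2 under low flow was among the values known, the untreated 48 hr pools are given as a description without a test. Tests of the members were made in the injected 48 hr libraries and in the 7 d libraries.

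Partial ligation lowers flow in the left carotid artery, the right (contralateral) artery then carries high flow, and RNA was flushed from the intima of several arteries into each pool. Untreated C57BL/6J males of 6 to 7 weeks gave 3 low-flow, 3 high-flow and 3 sham pools at 48 hr. Wild-type mice of the same age that were ligated and injected gave 2 libraries in each of 7 groups at 48 hr. Low-flow arteries came after control IgG, anti-GPIba (against platelets), anti-Gr1 (against granulocytes), PBS liposomes or clodronate liposomes (against macrophages), and high-flow arteries after IgG or PBS liposomes. At 7 d, mice of 2 to 7 months and both sexes carried floxed Rbfox2 and the Rosa26-mTmG reporter in every group. The EC-KO mice added the tamoxifen-inducible, endothelial Cdh5(PAC)-CreERT2, while their littermate controls had no Cre. There were 3 low-flow libraries of each genotype and 2 high-flow libraries of each. The other 9 libraries were single. They comprised a pool of low-flow arteries after each kind of liposome read at 100 bp, 3 primary cultures of sorted aortic endothelial cells and 4 cultures of 1 immortalized TetOn-SV40 line. The untreated pools and the eGFP-sorted culture were likewise read at 100 bp, and the remaining libraries at 150 bp. The primary cells were eGFP-sorted cells, Rbfox2 control cells and Rbfox2 EC-KO cells, and the line was kept without addition or for 48 hr with 10% plasma, with a mix of platelets and macrophages, or with all 3. The study calls the Rbfox2 libraries of a group biological replicates and gives the untreated and the injected libraries as separate pools, the injected ones of 3 to 5 arteries each.

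Across the 42 libraries, the counts on genes summed to between 4064477 and 19035957. The 10 endothelial marker genes, none at 0 in any library, held 0.402% to 1.90% of the counts in the intima, 0.287% to 0.559% in primary cells and only 0.0280% to 0.0339% in the immortalized line. Rbfox2, the deleted gene, had 2.74 to 5.73 FPKM in low-flow controls and 0.169 to 1.09 FPKM in low-flow EC-KO libraries at 7 d. Levels are given as FPKM (the count divided by the effective gene length and the library total, scaled in the usual way). Sham pool I stood apart from the other sham pools, and low-flow control library 4 from the other 7 d controls, as described below with each result.

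Interleukin-1 alpha and beta bind the receptor encoded by Il1r1, which pairs with the accessory protein of Il1rap and signals through Myd88 towards NF-kappaB. Il1rn encodes an antagonist that occupies the receptor without signalling, and Il1r2 a decoy receptor that binds agonist and lacks a signalling domain. Il1b and Il18 are made as precursors that caspase-1 cuts in inflammasomes, whereas Il33 is stored in nuclei of barrier and endothelial cells and binds the receptor of Il1rl1. Myeloid cells are a known source of Il1b, Il1rn and Il1r2, and endothelial cells are a classical target that answers with adhesion molecules and chemokines.

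Several members are neighbours. On chromosome 1 of NCBIM37 (mm9), Il1r2 (40141613 to 40182064), Il1r1 (40281925 to 40373043) and Il1rl1 (40486415 to 40522260) lie on the plus strand with gaps of 99860 and 113371 bases. Il1b (129190306 to 129196875) and Il1a (129125346 to 129135708) lie 54597 bases apart on the minus strand of chromosome 2, which also holds Il1rn (24192373 to 24207014, plus strand). The promoters of Il1b, Il1rn and Il1r2 are shown because these genes moved together in the intima, as given next. Each is the 250 bases before a RefSeq start in GRCm38.p6, an assembly other than that of the gene coordinates above, and capitals mark a motif match:
Il1b promoter, chr2:129371140-129371389, minus strand: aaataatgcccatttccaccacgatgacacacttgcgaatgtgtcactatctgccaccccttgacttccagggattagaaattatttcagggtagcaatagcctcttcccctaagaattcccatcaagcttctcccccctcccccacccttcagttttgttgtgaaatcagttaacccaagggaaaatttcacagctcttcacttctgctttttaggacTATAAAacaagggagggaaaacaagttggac
Il1rn promoter, chr2:24336610-24336859, plus strand: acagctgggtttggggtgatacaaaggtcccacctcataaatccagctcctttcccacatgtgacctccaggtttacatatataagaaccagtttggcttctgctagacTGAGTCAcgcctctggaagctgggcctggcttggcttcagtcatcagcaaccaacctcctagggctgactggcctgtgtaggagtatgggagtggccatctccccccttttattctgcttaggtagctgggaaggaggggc
Il1r2 promoter, chr1:40085843-40086092, plus strand: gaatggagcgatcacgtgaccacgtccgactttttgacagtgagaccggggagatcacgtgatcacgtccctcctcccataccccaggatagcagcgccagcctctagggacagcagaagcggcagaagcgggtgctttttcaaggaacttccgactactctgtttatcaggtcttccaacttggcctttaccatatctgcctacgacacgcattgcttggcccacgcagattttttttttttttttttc

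The motifs searched on both strands were AP-1 (TGANTCA), C/EBP (TTGCNNAA), PU.1 (GAGGAAG), the TATA box (TATAAA) and kappaB. In the members' windows no match overlapped another. In the Il1b promoter a TATA box began 31 bases before the start, and 12.37% of all 32851 windows of this length held those letters. In the Il1rn promoter shown, window 1 of 3 for this gene, an AP-1 match began 141 bases before the start, against 6.749% of all windows. Windows 2 and 3 of Il1rn, before other RefSeq starts, held 0 matches and are not shown. The Il1r2 window held none of the 5 motifs, so the 3 windows shown shared no match. Over the 15 windows of the 10 members, 4 members had a TATA match, 3 a C/EBP match, 2 an AP-1 match (Il1rn and Il1a), 1 a PU.1 match (Il1a) and 0 a kappaB match. In all windows the shares were 9.564% for C/EBP, 10.61% for PU.1 and 5.001% for kappaB.

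In untreated intima at 48 hr, low flow was accompanied by high levels of the agonist Il1b, its antagonist Il1rn and the decoy receptor Il1r2, and by a lower level of Casp1. Il1b had 68.4, 86.3 and 83.8 FPKM in the 3 low-flow pools, 0.397, 1.11 and 1.12 in the high-flow pools, and 2.81, 0.624 and 15.1 in the sham pools. The low-flow pools lay above all others, and sham pool I was the highest of the rest. Il1rn had 11.3, 15.1 and 17.1 FPKM at low flow, 0.104, 0.290 and 0.779 at high flow, and 0.524, 0.761 and 3.26 in sham pools. Il1r2 had 208, 301 and 185 FPKM at low flow, 0.979, 0.274 and 1.10 at high flow, and 2.17, 1.64 and 22.9 in sham pools. For all 3 genes the groups at low and high flow did not overlap, and sham pool I was again above the other sham pools. Between low and high flow the fitted log2 differences were 7.19 ± 0.40 (SE, n = 3 and 3) for Il1b and 5.91 ± 0.43 for Il1rn.

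**Figure D1:**
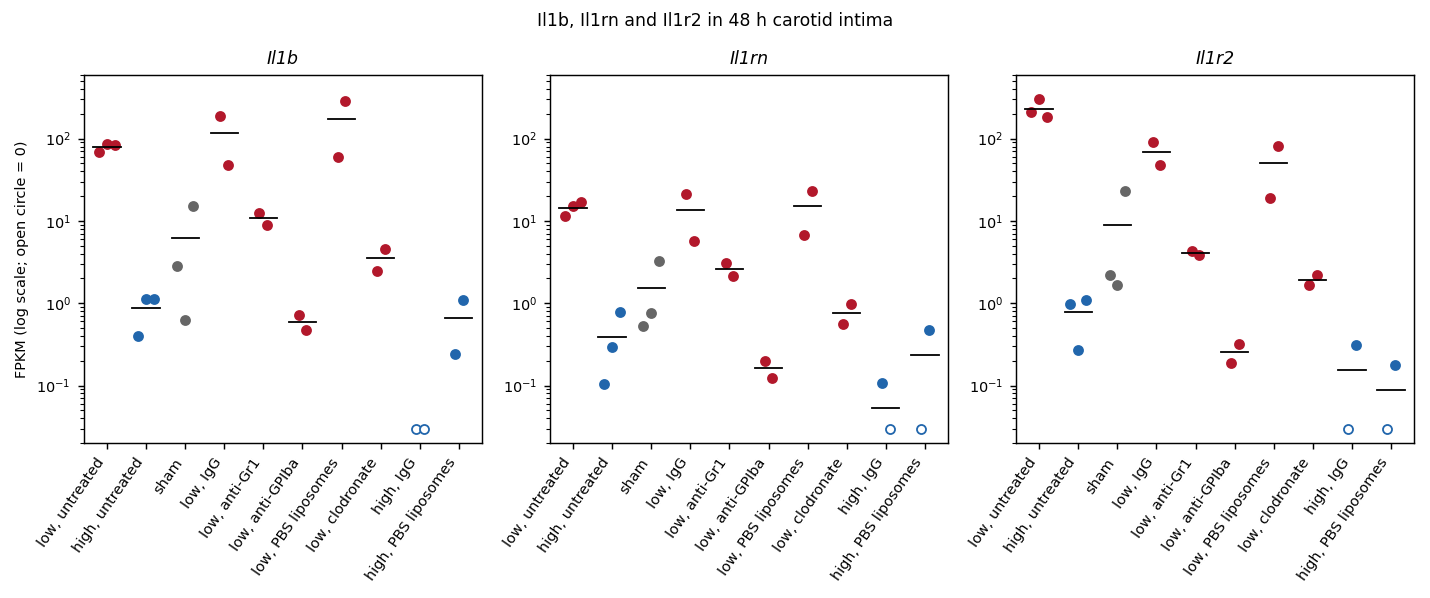
FPKM on a log scale (y axis) of Il1b, Il1rn and Il1r2 in every 48 hr library by group (x axis), where a point is a library, a line the group mean, and an open circle a value of 0 drawn at the foot of the axis. The low-flow control groups lie highest, with Il1b between 47.2 and 288 FPKM, and the anti-GPIba libraries fall to the level of high flow, with Il1b at 0.718 and 0.468 FPKM.

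Casp1, the caspase that matures Il1b and Il18, went the other way. It had 8.81, 6.41 and 21.8 FPKM at low flow, 51.4, 52.2 and 48.0 at high flow, and 50.9, 56.8 and 42.6 in sham pools, a log2 difference of -1.47 ± 0.20 (SE) between low and high flow. The endothelial markers held 0.402% to 0.538% of the counts at low flow and 0.816% to 1.01% at high flow. Per 100 counts of these markers there were 0.2998, 0.210 and 0.555 counts of Casp1 at low flow and 0.863, 0.706 and 0.671 at high flow, groups that still did not overlap. Il1r1, the signalling receptor, had 1.23, 0.871 and 2.41 FPKM at low flow and 2.52, 2.89 and 3.41 at high flow, and its sham pools at 1.94, 3.28 and 2.77 overlapped both.

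The remaining members overlapped between low and high flow. Il18 had 6.32, 5.30 and 7.53 FPKM at low flow and 1.30, 2.73 and 5.49 at high flow. Il33 had 0.493, 0.660 and 3.50 FPKM at low flow and 1.67, 4.74 and 3.13 at high flow. Low-flow pool C alone reached the range of the high-flow pools. Il1rap, the shared accessory subunit, had between 2.32 and 4.29 FPKM in all 9 pools. FPKM rests on the library total, whereas the fit scales libraries otherwise. In the fit the log2 difference of Il1rap was 0.69 ± 0.22 (SE) against high flow and 0.73 ± 0.22 against sham. Il1a had at most 0.322 FPKM in any pool and 0 in the 3 high-flow pools. Il1rl1, the receptor for Il33, had 3 counts in the low-flow pools together, 4 in the high-flow and 13 in the sham pools, a ratio of low flow to sham of 0.179. Its 95% counting interval, 0.0328 to 0.653, is on summed counts and leaves out the spread between pools.

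Counted over all 10 members, the low-flow and high-flow pools did not overlap for 3 that were higher and 2 that were lower (Il1r1 and Casp1). Among the 17874 genes with any count, 9.3% were higher and 30.2% lower. Overlap was read on counts over the library total, and these shares depend on that scaling. In the fit, which scales otherwise, Il1r1 differed by only -0.34 ± 0.24 (SE) and the median over all genes was -0.07. Against sham pools 3 members were higher at low flow and 2 were lower (Il1rl1 and Casp1), where 5.56% and 33% of 17927 genes were so. The scaling matters here too, as the median of the fit over all genes was -0.04. Between high flow and sham 0 members were higher and 2, Il1a and Il1r2, were lower, against 3.37% and 8.14% of 18241 genes. Only 8 of the 10 members passed the filter on low counts against high flow and against sham, and 5 of 10 between high flow and sham.

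Markers of several other cell types moved with these genes. The 9 neutrophil markers in the table held 0.0247% to 0.0487% of the counts in low-flow pools, 0.000749% to 0.00240% in high-flow pools and 0.00140% to 0.00449% in sham pools, where sham pool I had the most. The 11 monocyte and macrophage markers held 0.228% to 0.339%, 0.00695% to 0.0175% and 0.0209% to 0.0658%. Fat cell markers held 0.000986% to 0.00239% at low flow and 0.0119% to 0.146% at high flow, and T and innate lymphoid markers 0.00246% to 0.00744% and 0.0104% to 0.0109%, both lower at low flow with no overlap. Up to 2 of the neutrophil markers were at 0 in a low-flow pool, and 0 of the macrophage markers were. The 6 smooth muscle markers held 0.232% to 0.430% at low flow, 0.0522% to 0.0617% at high flow and 0.0434% to 0.162% in sham pools. Per 100 counts of macrophage markers there were 3.56, 3.01 and 4.31 counts of Il1b at low flow against 0.676, 0.920 and 0.758 at high flow. For Il1r2 the same measure was 10.96, 10.6 and 9.62 against 1.69, 0.230 and 0.758. The high-flow values rest on only 2, 8 and 6 counts of Il1b and 5, 2 and 6 of Il1r2. Il1rn, with 1, 4 and 8 counts at high flow, is not given on this scale. The part of these cells in the differences was not tested further. In bulk tissue fewer cells of a type and less RNA per cell cannot be told apart.

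Whether the flow difference held in other mice was examined in the arteries of injected animals. At low flow Il1b had 188 and 47.2 FPKM after IgG and 59.0 and 288 after PBS liposomes, while at high flow it was at 0 in both IgG libraries and at 0.244 and 1.08 after PBS liposomes. Il1r2 had 92.0 and 47.2 FPKM after IgG and 18.9 and 81.1 after PBS liposomes, against 0 and 0.306 and against 0 and 0.178 at high flow. Il1rn had 21.1 and 5.78 FPKM after IgG and 6.66 and 23.3 after PBS liposomes, and at most 0.470 in a high-flow library. The low-flow and high-flow libraries did not overlap for any of the 3 genes, although both libraries of a low-flow group lay far apart.

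After IgG, 5 members rose at low flow (Il1b, Il1rn, Il1r2, Il1rl1 and Il18) and 0 fell, where edgeR called 22.8% of 13401 genes higher and 17.7% lower. Il1b was at least 600-fold higher than the floor of 3 counts in each high-flow library (adjusted p = 0.00075 by edgeR). Il1r2 differed by 8.62 ± 1.04 on the log2 scale (SE, adjusted p = 0.000611). Il1rn had 3 counts in the high-flow libraries together, a ratio of 252 with a 95% counting interval, on summed counts, of 85.9 to 1223 (adjusted p = 0.00229). After PBS liposomes the same 5 members rose and 0 fell, against 19.6% of genes higher and 15.5% lower. There Il1b differed by 8.12 ± 1.08 and Il1rn by 6.08 ± 1.19 on the log2 scale (SE, adjusted p = 0.000744 and 0.00354 by edgeR). Il1r2, with 3 counts at high flow, had a ratio of 568.3 (counting interval 194 to 2758, without the spread between libraries). Over all genes 5422 were called after IgG, against 2141 without low-flow library 2 and 3581 without high-flow library 1. After PBS liposomes 4692 were called, against 2911 and 2172 without low-flow library 1 and 2 and 1482 without high-flow library 1.

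Il18, a ligand cut by caspase-1, rose in the same libraries. It had 5.38 and 4.001 FPKM after IgG and 3.29 and 4.66 after PBS liposomes at low flow, against 1.01, 1.22, 1.4995 and 1.08 at high flow. The log2 differences were 1.97 ± 0.60 and 1.72 ± 0.60 (SE, adjusted p = 0.0236 and 0.0431 by edgeR). Leaving out 1 library at a time ended both calls, with adjusted p from 0.0521 to 0.107 after IgG and from 0.0920 to 0.229 after PBS liposomes. Il1rl1 had 16 and 36 counts after IgG and 19 and 9 after PBS liposomes at low flow and 0 in all 4 high-flow libraries. Against the floor it was at least 6.16-fold and 3.80-fold higher (adjusted p = 0.0155 and 0.0245 by edgeR). Its call was lost without any 1 library after PBS liposomes (adjusted p from 0.0648 to 0.119) and after IgG without low-flow library 2 or either high-flow library (0.0609 to 0.0874).

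Taking both control injections together, with 4 low-flow and 4 high-flow libraries, 7 members rose and 1 fell, against 30.5% of genes higher and 24.6% lower. Il1r2 differed by 8.87 ± 0.75, Il1rn by 6.96 ± 0.92 and Il18 by 1.85 ± 0.42 on the log2 scale (SE, adjusted p = 1.3e-05, 0.000135 and 0.00357 by edgeR). Il1b and Il1rl1 were also called, and so was Il1a, which had 4 to 16 counts in each low-flow library and 1 count in the 4 high-flow libraries. Il33 rose by 1.43 ± 0.48 (SE, adjusted p = 0.0243 by edgeR). It had 6.09, 8.29, 7.93 and 2.51 FPKM at low flow and 2.01, 2.40, 3.08 and 1.69 at high flow, and PBS liposome library 2 lay within the high-flow range. Without PBS liposome library 1 at low flow its difference was 0.90 (adjusted p = 0.134), and the call was also lost without IgG library 2 at low flow or without IgG library 1, IgG library 2 or PBS liposome library 2 at high flow (adjusted p from 0.0511 to 0.0798). In the untreated pools Il33 had instead been lower in 2 of 3 low-flow pools than in any high-flow pool.

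Casp1 fell by 0.89 on the log2 scale (SE 0.28, adjusted p = 0.018 by edgeR). It had 25.4, 16.7, 16.6 and 21.4 FPKM at low flow and 38.8, 31.5, 36.2 and 43.5 at high flow, and these groups did not overlap. The endothelial markers held 0.449% to 0.634% of the counts in these low-flow libraries and 1.07% to 1.90% at high flow. Per 100 endothelial counts Casp1 was at 0.548, 0.446, 0.483 and 0.651 at low flow and 0.279, 0.229, 0.339 and 0.558 at high flow. On this scale the fall was not seen, since 3 of the 4 high-flow libraries lay below every low-flow library and the fourth lay above 3 of them. Without IgG library 2 or PBS liposome library 1 at low flow, or IgG library 1 at high flow, the call was lost (adjusted p = 0.0783, 0.0653 and 0.0548).

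The receptor subunits did not pass the test. Il1r1 had 6.30, 6.63, 7.93 and 5.55 FPKM at low flow and 6.30, 3.98, 7.98 and 4.27 at high flow, a log2 difference of 0.25 ± 0.34 (SE, adjusted p = 0.55). Il1rap had 8.98, 6.17, 4.72 and 6.84 FPKM at low flow and 5.08, 6.25, 8.62 and 6.75 at high flow, a difference of 0.01 ± 0.24 (SE, adjusted p = 0.972). Both groups overlapped for each gene. All 10 members passed the filter here. Their median fitted difference was 3.40, or 2.06 with members at 3 counts or fewer in a group set to their bound or ratio, against 0.05 over all genes.

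**Figure D2:**
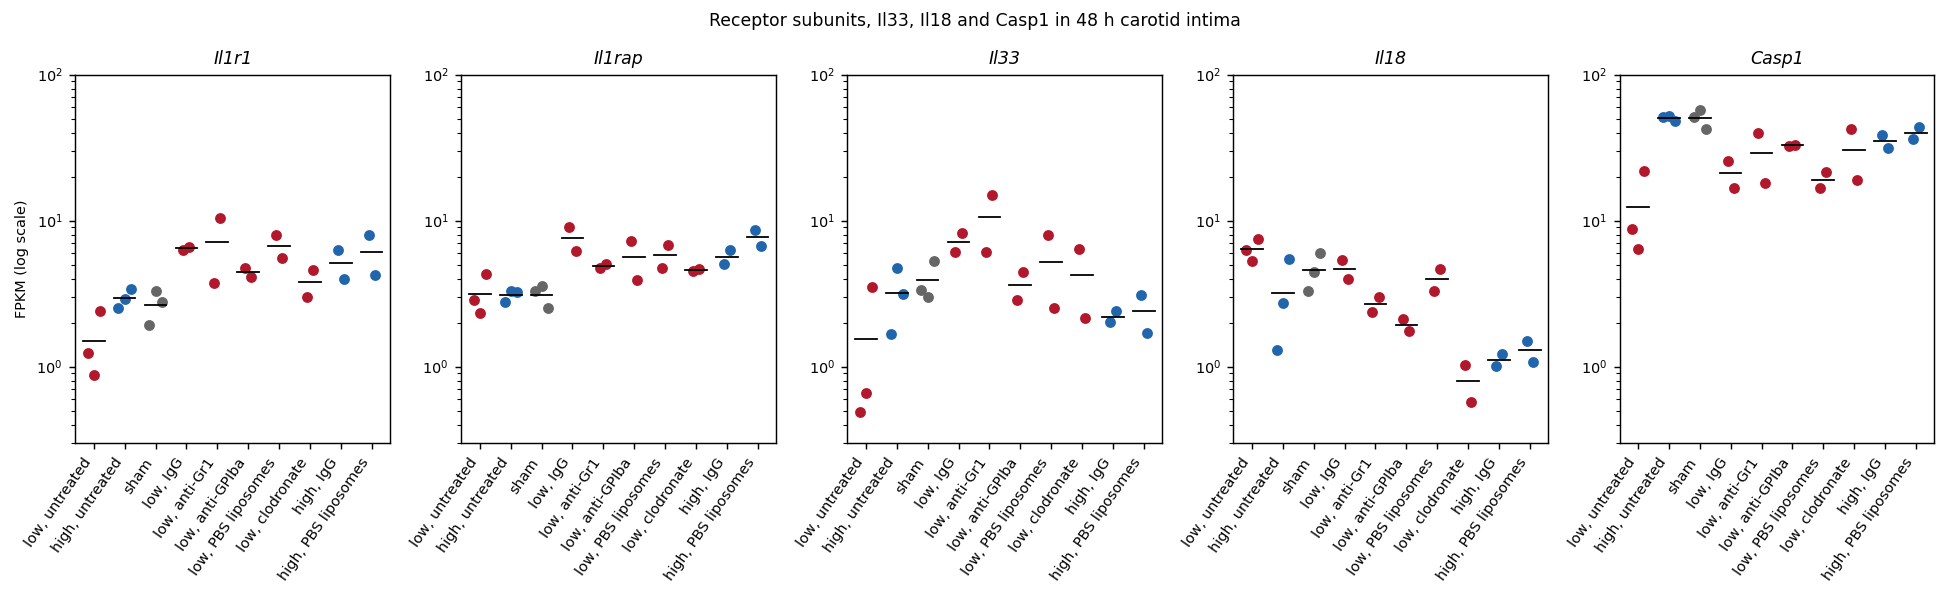
FPKM on a log scale (y axis) of Il1r1, Il1rap, Il33, Il18 and Casp1 in every 48 hr library by group (x axis), where a point is a library and a line the group mean. Casp1 lies between 6.41 and 21.8 FPKM in untreated low-flow pools and between 48.0 and 52.2 at high flow, while Il1rap overlaps between low and high flow in each kind of mouse.

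These flow differences carry a limit of design. The low-flow libraries of injected mice were read in another sequencing run than the high-flow libraries, by the names of the read files in the table. Run and flow can therefore not be told apart there. High-flow arteries were the contralateral arteries of ligated mice. The main fit did not pair the sides, since no label ties pools to the same mice. Neutrophil markers held 0.0101% to 0.0340% of the counts in the 4 low-flow control libraries and 0.000618% to 0.00636% at high flow, and macrophage markers 0.135% to 0.251% and 0.00691% to 0.0271%. Smooth muscle markers held 0.302% to 0.589% at low flow and 0.0483% to 0.0923% at high flow. The part of these cells in the differences was not tested.

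Depletion of platelets, granulocytes or macrophages was used to ask which blood cells the response to low flow depends on. With the platelet-depleting antibody anti-GPIba, Il1b had 0.718 and 0.468 FPKM, Il1r2 0.189 and 0.323, and Il1rn 0.2001 and 0.122, all below every low-flow IgG library. The high-flow libraries of injected mice reached 1.08, 0.306 and 0.470 FPKM for these genes, so the ranges overlapped. Against IgG at low flow 4 members fell (Il1b, Il1r2, Il1rn and Il1rl1) and 0 rose, where edgeR called 6.05% of genes higher and 10.5% lower. Il1b fell by 7.64 (SE 1.05, adjusted p = 0.00982), Il1r2 by 8.07 (SE 0.97, adjusted p = 0.00547) and Il1rn by 6.37 (SE 1.21, adjusted p = 0.0192) on the log2 scale by edgeR. Il1rl1 had 0 counts in both anti-GPIba libraries and was at least 8.52-fold lower (adjusted p = 0.0333). Over all genes 15 and 1 were called without anti-GPIba library 1 and 2, and 83 and 89 without IgG library 1 and 2. Leaving out either anti-GPIba library left 0 members called, with Il1r2 at an adjusted p of 0.0601 and 0.112, and without IgG library 1 there were 2.

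Other members did not pass the test after anti-GPIba. Il1a had 0 counts in both libraries and was at least 2.25-fold lower (adjusted p = 0.0656 by edgeR). Il18 had 2.12 and 1.76 FPKM, below both IgG libraries, with an adjusted p of 0.129. Il33 had 2.87 and 4.42 FPKM, Il1r1 4.71 and 4.12, and Il1rap 7.27 and 3.94, with adjusted p from 0.283 to 0.398. Casp1 had 32.5 and 33.1 FPKM, above both IgG libraries, with an adjusted p of 0.273. The median fitted difference was -3.43 over the members, or -1.23 with the members at 0 set to their bound, and -0.04 over all genes.

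The granulocyte-directed antibody anti-Gr1 left Il1b at 12.5 and 8.91 FPKM, Il1r2 at 4.35 and 3.87, and Il1rn at 3.10 and 2.13. For all 3 genes both libraries lay below both IgG libraries and above both anti-GPIba libraries. By edgeR 0 members and 0% of genes were called, though the unadjusted p of 3 members and 2432 genes was under 0.05. DESeq2 called 2 members (Il1b and Il1r2) and 201 genes. Il1b differed by -3.44 ± 0.82, Il1r2 by -4.06 ± 0.76 and Il1rn by -2.34 ± 0.96 on the log2 scale (SE, adjusted p = 0.243, 0.243 and 0.256 by edgeR). Il33 had 6.05 and 15.1 FPKM and Casp1 39.5 and 18.2, each with 1 library inside or near the IgG range. IgG at low flow served as the control for both antibodies and for the flow comparison, so these values are not independent of each other.

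After clodronate liposomes Il1b had 2.43 and 4.61 FPKM, Il1r2 1.67 and 2.19, Il1rn 0.561 and 0.976, and Il18 1.02 and 0.574. All 4 lay below both libraries after PBS liposomes, which were also the controls of the flow comparison. By edgeR 0 members and 16 genes (0.119%) were called, and before adjustment 4 members and 2002 genes had p under 0.05. DESeq2 called these 4 members and 471 genes. With the replicate number as a block edgeR called Il1b and Il1r2, but whether the numbers pair the libraries was not settled. The log2 differences were -5.71 ± 0.93 for Il1b, -4.79 ± 0.80 for Il1r2, -4.37 ± 1.07 for Il1rn and -2.41 ± 0.62 for Il18 (SE, adjusted p = 0.057, 0.0548, 0.137 and 0.152 by edgeR). Casp1 had 42.4 and 18.9 FPKM and overlapped the controls.

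The single liposome libraries read at 100 bp gave the same order. Il1b had 132 FPKM after PBS and 3.72 after clodronate liposomes, a ratio of 35.4 (95% counting interval 24.0 to 54.5). Il1r2 had 90.0 and 6.22 FPKM (ratio 14.5, interval 10.6 to 20.2), Il1rn 17.2 and 1.497 (11.5, 7.23 to 19.2) and Il18 10.1 and 1.64 (6.13, 2.71 to 16.3). There was 1 library of each, so these intervals cover counting error only and the difference has no replicate check.

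Each depletion went with marker levels as well. Neutrophil markers held 0.0340% and 0.0117% of the counts after IgG, 0.000787% and 0.00132% after anti-GPIba, and 0.00168% and 0.00305% after anti-Gr1. Macrophage markers held 0.251% and 0.228% after IgG, 0.0207% and 0.0292% after anti-GPIba, and 0.123% and 0.132% after anti-Gr1. Clodronate libraries had 0.0234% and 0.0236% of macrophage markers against 0.135% and 0.227% after PBS liposomes, and 0.00283% and 0.00338% of neutrophil markers against 0.0101% and 0.0298%. Both lists were thus lower in all 3 treatments. Platelet markers held 0.00343% to 0.00388% after IgG and 0.00228% to 0.00286% after anti-GPIba, and T and innate lymphoid markers 0.00580% to 0.00584% and 0.00987% to 0.0105%, with no overlap in either list. Mast cell markers, few in counts, held 0.000255% to 0.000310% after IgG and 6.80e-05% to 0.000149% after anti-GPIba. T and innate lymphoid markers held 0.00429% to 0.00437% after PBS liposomes and 0.00626% to 0.00768% after clodronate. Fat cell markers held 0.00303% to 0.00315% and 0.00588% to 0.00849% there. Smooth muscle markers held 0.437% and 0.472% after IgG and 0.0722% to 0.102% after anti-GPIba, while anti-Gr1 libraries at 0.180% and 0.623% lay on either side of IgG. After clodronate they held 0.244% to 0.270%, against 0.302% to 0.589% after PBS liposomes. Endothelial markers were higher in each depletion than in its control with no overlap, at 0.511% to 0.634% after IgG, 1.13% to 1.15% after anti-GPIba and 0.845% to 1.003% after anti-Gr1, and at 0.449% to 0.470% after PBS liposomes and 0.665% to 0.996% after clodronate. Fibroblast markers held 0.0139% to 0.0171% after IgG, 0.0378% to 0.0830% after anti-GPIba and 0.0344% to 0.0672% after anti-Gr1. Per 100 neutrophil counts Il1b was at 88.2 and 34.5 after anti-Gr1 and at 65.5 and 47.6 after IgG, which overlapped, but at 10.8 and 4.18 after anti-GPIba. Per 100 macrophage counts it was at 1.21 and 0.801 after anti-Gr1, 0.411 and 0.189 after anti-GPIba, and 8.87 and 2.45 after IgG. Their part in the differences was not tested beyond these ratios.

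The balance within the family was read as a ratio of FPKM within each library, which does not depend on library size. The ratio of decoy to signalling receptor (Il1r2 over Il1r1) was 169, 345 and 76.5 in untreated low-flow pools, 0.388, 0.0946 and 0.323 at high flow, and 1.12, 0.501 and 8.25 in sham pools. It was 14.6 and 7.12 after IgG and 2.39 and 14.6 after PBS liposomes at low flow, so the decoy led in every low-flow control library of these replicated 48 hr groups. It was 0.0401 and 0.0785 after anti-GPIba, 1.15 and 0.370 after anti-Gr1, and 0.560 and 0.479 after clodronate. The anti-GPIba values rest on 4 and 7 counts of Il1r2. The single 100 bp libraries had 17.1 after PBS liposomes and 2.03 after clodronate, where the decoy still led. At 7 d it was 0.127, 7.84 and 0.517 in low-flow controls and 0.114, 0.0967 and 0.355 in EC-KO libraries, so there it led in control library 4 alone. The ratio of antagonist to agonist (Il1rn over Il1b) was 0.165, 0.176 and 0.204 in untreated low-flow pools, 0.112 and 0.122 after IgG and 0.113 and 0.0811 after PBS liposomes. In the 6 replicated depleted libraries it ran from 0.212 to 0.279, above these low-flow controls. After anti-GPIba the counts of Il1rn and Il1b were only 8 and 15 in library 1 and 5 and 10 in library 2. The 100 bp libraries had 0.130 after PBS liposomes and 0.402 after clodronate. In untreated pools it was 0.261, 0.261 and 0.697 at high flow and 0.187, 1.22 and 0.216 in sham pools. The high-flow values rest on 1, 4 and 8 counts of Il1rn and 2, 8 and 6 of Il1b. Sham pools had 5, 7 and 36 counts of Il1rn and 14, 3 and 87 of Il1b. At 7 d it was 0.236, 0.159 and 0.0336 in low-flow controls and 0.352, 0.0954 and 0.0829 in EC-KO libraries. These ratios were computed with the values known and carry no test.

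**Figure D3:**
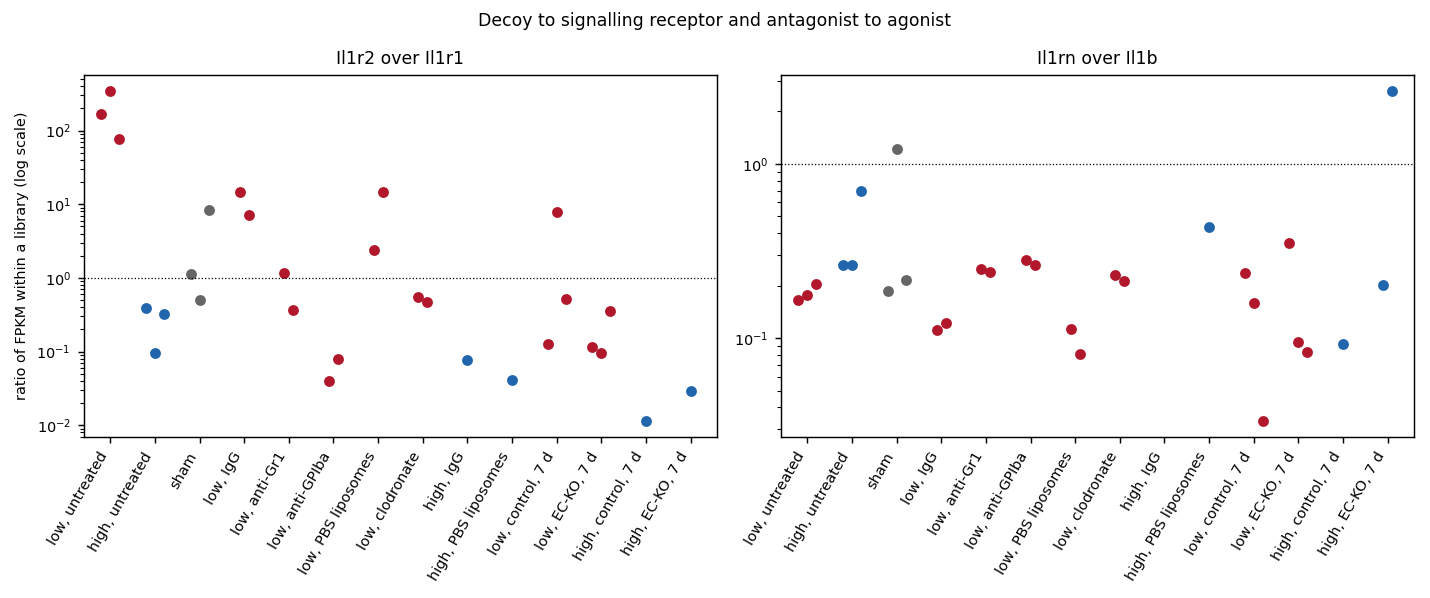
Ratio of FPKM within a library on a log scale (y axis) for Il1r2 over Il1r1 (left) and Il1rn over Il1b (right) by group (x axis), where a point is a library, ratios of 0 or without a denominator are not drawn, and the dotted line marks 1. Among 48 hr arteries the drawn values of Il1r2 over Il1r1 run from 345 in an untreated low-flow pool to 0.0401 after anti-GPIba, whereas Il1rn over Il1b stays between 0.0811 and 0.279 in the replicated low-flow groups at 48 hr.

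Other genes of the pathway were read from 5 lists, also written with earlier values known. Of 12 inflammasome genes, 10 rose at low flow after IgG and 4 after PBS liposomes, 10 rose and 1 fell with both controls together, and 7 fell after anti-GPIba. Over all genes 22.8%, 19.6% and 30.5% rose in these flow comparisons and 10.5% fell after anti-GPIba. Mefv, which encodes the sensor pyrin, had 6.40 and 4.49 FPKM after IgG at low flow and was at 0 at high flow and after anti-GPIba. Nlrp3, the sensor best known for Il1b maturation, had 1.28 and 0.569 FPKM and was at 0 in the same 4 libraries. Casp4, the caspase that senses endotoxin, had 37.6, 24.0, 40.1 and 34.99 FPKM in low-flow controls and 14.1, 16.9, 18.4 and 25.0 at high flow. In untreated pools it had 16.5, 20.8 and 52.6 FPKM at low flow and 40.7 to 49.4 at high flow. The groups overlapped in both kinds of mouse. The channel gene Panx1 fell by 2.69 on the log2 scale after anti-GPIba (adjusted p = 0.023 by edgeR).

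Among 12 genes of signalling from the receptor, 2 rose and 3 fell at low flow after IgG and after PBS liposomes alike, and 2 rose and 6 fell with both together. The 2 and 3 of 12 are near the shares over all genes, 22.8% higher and 17.7% lower after IgG and 19.6% and 15.5% after PBS liposomes. With both controls the shares were 30.5% and 24.6%. Tollip, an inhibitory adaptor of the receptor complex, had 45.9, 41.7, 37.6 and 29.9 FPKM at low flow and 116, 110, 101 and 99.4 at high flow (log2 difference -1.46, adjusted p = 2e-05 by edgeR). Peli1, a ubiquitin ligase of the same complex, had 9.21 to 13.5 FPKM at low flow and 19.2 to 36.7 at high flow. Neither gene overlapped between the groups. Ube2n, a ubiquitin-conjugating enzyme, was the 1 gene of this list called after anti-GPIba, where it fell by 1.18 and 10.5% of all genes fell.

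Of the 11 tested among 12 endothelial genes known to be induced by interleukin-1, 6 rose at low flow after IgG, 5 after PBS liposomes and 6 with both, beside 22.8%, 19.6% and 30.5% of all genes. The chemokine gene Ccl2 and the prostaglandin synthase gene Ptgs2 were among them, with both controls together at log2 differences of 4.63 ± 0.49 and 5.43 ± 0.73 (SE). After anti-GPIba 3 of this list fell, Ccl2 by 3.43 among them, and 3 rose, beside 10.5% and 6.05% of all genes. Of 5 tested genes for proteases that cut family members, 2 rose and 3 fell after IgG, 0 and 3 after PBS liposomes, beside the same 22.8% and 17.7% and 19.6% and 15.5% of all genes, and Mmp9 fell by 5.10 after anti-GPIba. Adam17, the sheddase of surface receptors, fell by 0.97 on the log2 scale with both controls. Of 12 other receptors, ligands and inhibitors in the table, some under older symbols, 5 were tested. Il1f9 (an IL-36 agonist) and Il18rap (a subunit of the Il18 receptor) rose at low flow in all 3 fits and fell after anti-GPIba. In all 5 lists edgeR called 0 genes after anti-Gr1 or clodronate and 0 in any 7 d comparison. Over all genes it called 0% and 0.119% after these treatments and at most 2.4% in a 7 d comparison. The lists were not counted with DESeq2.

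At 7 d the agonist, antagonist and decoy varied widely between low-flow libraries of mice without Cre. In control libraries 1, 4 and 5 Il1b had 2.14, 274 and 20.4 FPKM, Il1r2 0.654, 87.4 and 3.96, and Il1rn 0.506, 43.5 and 0.685. Library 4 alone was at or near the levels of low flow at 48 hr. High-flow controls had 0.976 and 0 FPKM of Il1b, 0.0566 and 0 of Il1r2, and 0.0900 and 0 of Il1rn, below all low-flow controls. Between low and high flow in controls edgeR called 0 members and 320 genes (2.4%), and before adjustment 5 members and 3332 genes had p under 0.05. DESeq2 called 3 members (Il1a, Il1b and Il1r2) and 2207 genes. With the replicate number as a block edgeR called Casp1, Il1a, Il1b, Il1r2 and Il1rn, as given at the end with the genes. Same-numbered low-flow and high-flow controls had r = 0.0124 and 0.226, so whether the numbers pair them was not settled. Il1b differed by 7.47 ± 2.18 on the log2 scale (SE, adjusted p = 0.0781 by edgeR). Without library 4 the difference was 4.42 ± 1.61 (adjusted p = 0.194), and without library 1, 6 members were called, Il1b with 8.02 ± 1.56 (adjusted p = 0.00533). The genes called in this comparison came to 3897 without low-flow library 1, 52 and 34 without low-flow library 4 and 5, and 4 and 3 without high-flow library 4 and 5.

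The other members at low flow in 7 d controls showed library 4 apart as well. Il33 had 5.20, 15.2 and 0.568 FPKM and Casp1 34.0, 14.1 and 25.8, so library 4 had the most Il33 and the least Casp1. Casp1 at high flow had 47.4 and 40.3 FPKM, above all 3 (log2 difference -0.92 ± 0.34, SE, adjusted p = 0.132). Il1a had 0.132, 1.47 and 1.11 FPKM at low flow and 0 at high flow, at least 7.04-fold higher than the floor. Il1r1 had 5.13, 11.2 and 7.67 FPKM and Il1rap 6.32, 12.1 and 4.99, against 4.91 and 5.08 and against 6.93 and 6.04 at high flow. Il18 had 3.42, 5.94 and 3.89 FPKM at low flow and 2.35 and 0.738 at high flow. Il1rl1 had 8, 0 and 0 counts and was the 1 member of 10 that did not pass the filter.

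With endothelial deletion of Rbfox2 the 3 low-flow libraries were closer to each other. Il1b had 4.45, 15.8 and 15.3 FPKM, Il1r2 0.761, 0.677 and 2.82, and Il1rn 1.56, 1.51 and 1.27 in EC-KO libraries 1, 4 and 5. All lay between control libraries 1 and 4 for Il1b and Il1r2. For EC-KO against control edgeR called 0 members at low flow, where 0% of genes were called. Before adjustment 2 members (Il1r2 and Il1rn) and 880 genes had p under 0.05, while DESeq2 called 0 members and 13 genes. Il1r2 differed by -4.42 ± 1.53 on the log2 scale (SE, adjusted p = 0.692 by edgeR), by -0.73 ± 1.35 without control library 4, and by -4.99 ± 1.14 (adjusted p = 0.0287) without control library 1, where 1476 genes were called, against 0 without any 1 other low-flow library. For Il1rn the difference was -3.33 ± 1.42 and changed sign to 1.29 ± 1.03 without library 4, and for Il1b it was -3.03 ± 1.41 and then 0.06 ± 1.23. The sizes at low flow thus rested on control library 4. Each of 3 sequencing runs held 1 low-flow library of each genotype, and within them Il1b was 2.14 in the control and 4.45 FPKM in EC-KO, 274 and 15.3, and 20.4 and 15.8, so its direction differed between runs. Casp1 had 33.6, 32.9 and 45.8 FPKM in EC-KO libraries, a log2 difference of 0.63 ± 0.31 (SE, adjusted p = 0.692).

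At high flow edgeR called 0 members and 1 gene (0.00749%) between EC-KO and control, 0 members and 293 genes had unadjusted p under 0.05, while DESeq2 called 0 members and 26 genes. Between low and high flow within EC-KO it called 0 members and 146 genes (1.09%), or 1 to 15 genes without any 1 of the 5 libraries, 2 members (Il1a and Il1b) and 2099 genes had unadjusted p under 0.05, while DESeq2 called 0 members and 939 genes. Il1b had 0.695 and 0.0470 FPKM at high flow in EC-KO mice, below all 3 low-flow libraries, and differed by 5.01 ± 2.03 (SE, adjusted p = 0.273). Il33 had 0.943, 3.84 and 1.18 FPKM at low flow and 2.09 and 2.12 at high flow, which overlapped. For the interaction of flow and genotype edgeR called 0 members and 0% of genes, 0 members and 538 genes had unadjusted p under 0.05, while DESeq2 called 0 members and 20 genes.

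**Figure D4:**
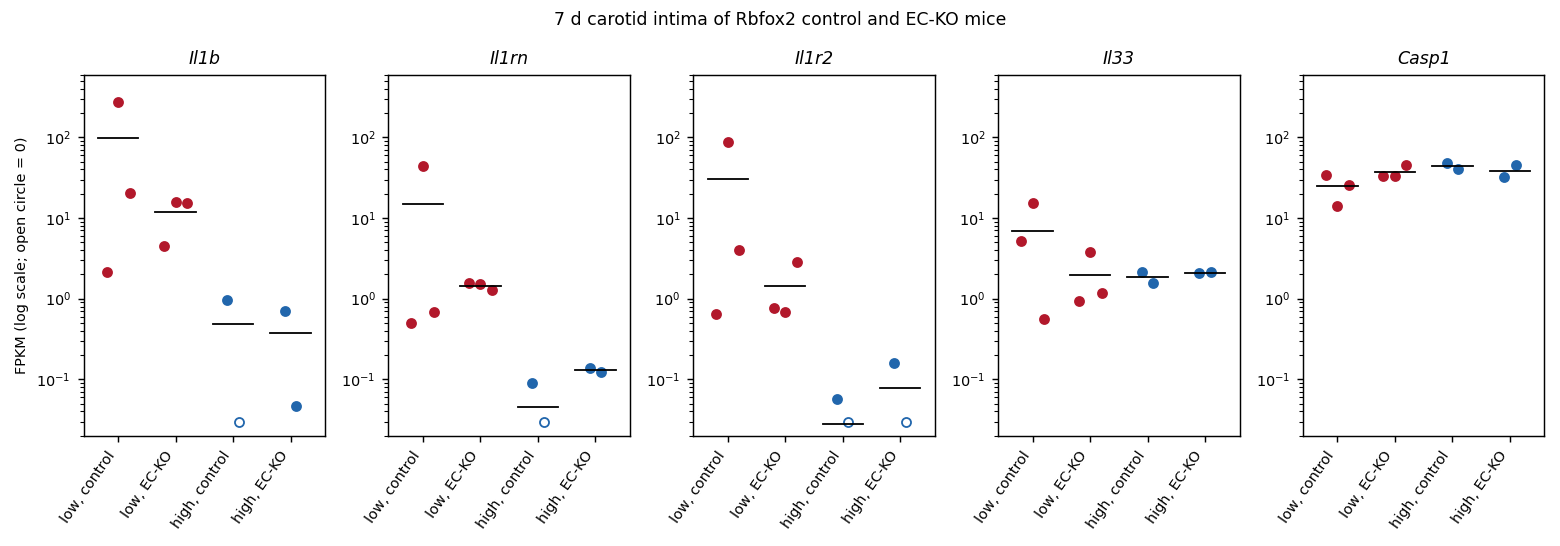
FPKM on a log scale (y axis) of Il1b, Il1rn, Il1r2, Il33 and Casp1 in every 7 d library by flow and genotype (x axis), where a point is a library, a line the group mean, and an open circle a value of 0. Control library 4 at low flow stands apart with 274 FPKM of Il1b and 87.4 of Il1r2, while the 3 EC-KO libraries lie between 4.45 and 15.8 for Il1b.

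Markers differed between these libraries too. The 5 fibroblast markers held 0.0167% to 0.0706% of the counts in low-flow controls and 0.0787% to 0.276% in low-flow EC-KO libraries, with no overlap. Between low and high flow in controls, endothelial markers held 0.586% to 1.17% and 1.61% to 1.70%, macrophage markers 0.0356% to 0.177% and 0.00519% to 0.0133%, and smooth muscle markers 0.129% to 0.176% and 0.0293% to 0.0388%. Control library 4 had 0.0315% of its counts in neutrophil markers, against 0.00236% and 0.00212% in libraries 1 and 5 and 0.000800% to 0.00332% in EC-KO libraries. Macrophage markers held 0.0388%, 0.177% and 0.0356% in the controls and 0.0864%, 0.176% and 0.121% in EC-KO libraries. Il1b per 100 macrophage counts was 0.653, 18.3 and 6.78 in controls and 0.609, 1.06 and 1.497 in EC-KO libraries. EC-KO library 4 and control library 4 had like shares of macrophage markers and differed in Il1b and in neutrophil markers, but they came from different sequencing runs. The part of these cells in the differences was not tested.

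Cultured aortic cells gave the members' levels outside the artery. In primary aortic cells Casp1 had 39.4 FPKM in eGFP-sorted cells, 21.0 in the Rbfox2 control and 20.8 in the EC-KO culture, and Il1r1 had 6.76, 19.1 and 16.7. Il1rap had 1.36, 4.73 and 5.63 FPKM. Il1b, Il1a and Il1rl1 had 0 counts in all 3, and Il1r2 1, 0 and 0, where 3 counts are the floor. The ratio of EC-KO to control was 0.992 (95% counting interval 0.850 to 1.16) for Casp1 and 0.875 (0.799 to 0.957) for Il1r1, from 1 library each. Il33 had 0 counts in the EC-KO and 11 in the control culture, with an upper 95% counting limit of 0.584 on the ratio. Macrophage markers held 0.0317% of the counts in the Rbfox2 control culture, 0.000191% in the EC-KO culture and 0.00220% in eGFP-sorted cells. Smooth muscle markers held 0.575%, 0.455% and 0.264% in the same order, beside 0.508%, 0.559% and 0.287% for endothelial markers. The part of either list in these values was not tested.

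In the immortalized line Il33 and its receptor gene Il1rl1 were both higher with all 3 additions than without addition. Il33 had 0.114 FPKM without addition, 2.72 after plasma, 1.79 after the mix of platelets and macrophages, and 6.56 where all 3 were added, a ratio of 57.5 (95% counting interval 22.2 to 213) between the last and the first. Il1rl1 had 5, 6, 14 and 115 counts in the same order, a ratio of 20.6 (interval 8.56 to 64.6). Casp1 was highest with plasma alone, at 13.7 FPKM against 6.43 without addition (ratio 2.14, interval 1.73 to 2.66), and had 9.46 with platelets and macrophages and 6.95 with all 3. Il1rn had 5 counts without addition, 0 with plasma, 63 with platelets and macrophages (ratio 13.1, interval 5.35 to 41.9) and 17 with all 3. Macrophage markers held 0.0384% and 0.0302% of the counts in the wells that had received these cells and 0.00205% and 0.00570% in the others. Neutrophil markers held 0.00137% with all 3 additions, against 6.14e-05% without addition, and the part of either list was not tested. Il1r2 had 3 counts without addition and 21 with all 3 (ratio 6.26, interval 1.87 to 32.8). Il1b had at most 2 counts in any well and Il18 at most 4. Il1r1 stayed between 5.39 and 7.99 FPKM and Il1rap between 6.14 and 9.59. Each condition was 1 library, so these intervals hold counting error alone.

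**Figure D5:**
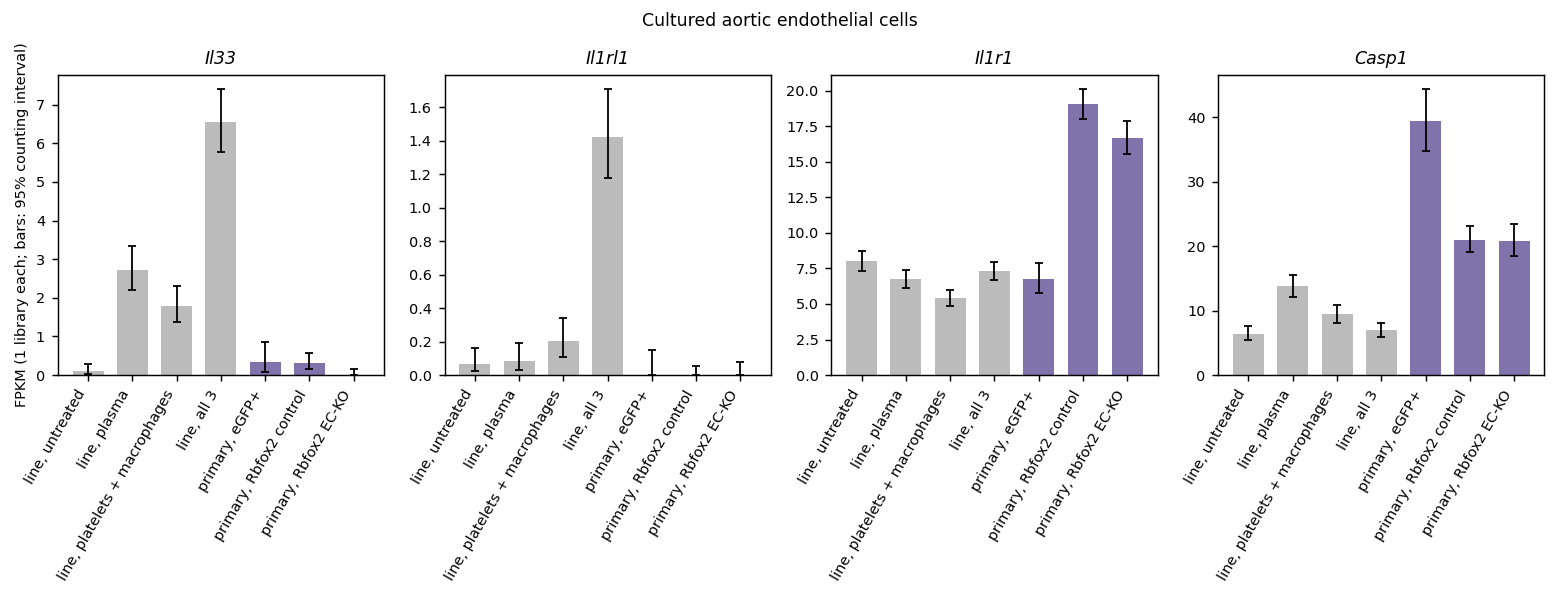
FPKM (y axis, from 0) of Il33, Il1rl1, Il1r1 and Casp1 in 4 cultures of the immortalized line (grey) and 3 primary cultures (purple), where a bar is 1 library and its error bar the 95% counting interval. Il33 rises from 0.114 FPKM without addition to 6.56 with plasma, platelets and macrophages and is at most 0.335 in primary cells.

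The genes most like each member across the 14 injected 48 hr libraries were ranked by Pearson correlation of log2(CPM + 1). The libraries share flow groups, runs and blood cell content, so the values are descriptions. Of 13400 other genes Il1rn was the most like Il1b (r = 0.995), Rnf149 came next (r = 0.986) and then Il1r2 (r = 0.982). In the 9 untreated pools these correlations were 0.987, 0.972 and 0.991. Il1r2 was most like Amica1 (r = 0.985), an adhesion molecule of leukocytes. Il18 was most like Pygl (r = 0.972) and Cd14 (r = 0.958), the latter a monocyte marker. Il33 was most like Ednrb (r = 0.887), an endothelin receptor, and among its nearest was also Pdpn (r = 0.877). Casp1 was most like Nxn (r = 0.953) and ran against Il1b (r = -0.654). Il1r1 was most like Gpr176 (r = 0.886) in injected mice, but the same gene gave r = -0.17 in untreated pools.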

How the data were processed

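Intimal RNA of mouse carotid arteries and RNA of cultured aortic endothelial cells was sequenced, and 1 table of the whole series was used. The submitters' processing notes name STAR 2.5.1b and RSEM 1.2.15, and the gene coordinates in the table are those of NCBIM37. The deposited expected counts are RSEM's estimates per gene (5.2% to 19.3% of the values in a library are not whole), and they were rounded for tests. The RPKM values deposited by the authors served only as a check of the FPKM computed here (median ratio 0.967 to 1.07). Of 204 columns of values 147 were not used, and 1 nameless row of 21675 was dropped.

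Members and gene lists were chosen with earlier results of these data known. All 10 members were named, and of each pathway list the 2 genes with the smallest p in a comparison. Likeness is over the 5 highest correlations per member. Counts were tested with edgeR 4.0.16 in R 4.3.3 (filterByExpr, TMM scaling, quasi-likelihood F-test, two-sided, Benjamini-Hochberg over all genes, threshold 0.05) in 11 comparisons. The 7 injected groups were fitted together, and so were the 4 groups at 7 d. DESeq2 1.42.0, RLE scaling, no filter, a replicate block and leaving out each library were alternatives. The script was tested on simulated data. An SE is the fold change divided by the root of the F statistic. Ratios of counts, of single libraries or summed over a group, have exact 95% counting intervals, which cover counting error only and not the spread between libraries. A fold against a group at 0 was set against a floor of 3 counts per library. In 7 d low-flow libraries same-numbered control and EC-KO samples deviated together (r = 0.187, 0.349 and 0.515), so the numbers may pair them, although the labels do not give the source of the numbers. The fit with the replicate number as a block called 0 members and 0 genes there. Promoters were read from a RefSeq table of GRCm38.p6. Protein sequences were not analysed here.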

Additional observations from a re-analysis of the deposited data

How the results depend on the processing

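Il1b, Il1r2 and Il1rn kept their call between low and high flow in injected mice under all alternatives. Of 221 values of called members under the alternatives, 182 kept their direction and side of the threshold, 39 lost the threshold and 0 reversed. Members called with DESeq2 came to 2 for anti-Gr1, 4 for clodronate and 3 for flow in 7 d controls, where edgeR called 0, and the cause was not tested. With the 2 groups alone, 2 were called for anti-Gr1 and 1 for flow in 7 d EC-KO libraries. Without the filter on low counts, 2 were called for clodronate. With the replicate block, 2 were called for clodronate, 5 for flow in 7 d controls (2940 genes) and 1 for flow in EC-KO libraries (1317 genes). Where no number of genes stands beside a count of members, the calls over all genes are not given here. Such a count is no result about the members in particular. Deviations of same-numbered injected libraries had a median r of 0.0136 (-0.165 to 0.530 over 42 pairs), and the labels give no source for the numbers. Among the liposome groups r was 0.457 to 0.530, from 2 libraries a group, so a pairing there, under which the clodronate calls were made, was not settled. Between high flow and sham 0 genes were called by edgeR, 91 by DESeq2 and 63 without the filter. Leaving out 1 library at a time gave 3 to 4 members for flow after IgG, 3 to 3 after PBS liposomes, 6 to 8 with both, 0 to 3 for anti-GPIba, 0 to 2 for clodronate, 0 to 1 for EC-KO against control at low flow, 0 to 6 for flow in 7 d controls and 0 to 0 elsewhere at 7 d and for anti-Gr1. It gave 4151 to 5411 genes between low and high flow in untreated pools, 2513 to 4757 between low flow and sham, and 0 to 78 between high flow and sham. Over all genes anti-GPIba gave 2216 calls, or 3690 with DESeq2, 4449 with the 2 groups alone and 1 to 89 without any 1 library. Clodronate gave 16, or 471 with DESeq2, 0 without clodronate library 1 or PBS liposome library 2, 29 without PBS liposome library 1 and 937 without clodronate library 2. Sequencing run as a block, chosen after seeing the data, gave 0 members for EC-KO against control at low and at high flow and for the interaction, and was not run between low and high flow. The second sequencing runs of the untreated pools were not run as alternatives. Il1a and Il1rl1 had 0 counts in both anti-GPIba libraries, where depth allows only a bound on the fold.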
